A study of Mus musculus with 4 samples.

Results

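The 5 genes described here encode proteins that remove superoxide and peroxides: *SOD1*, *TXN*, *PRDX1*, *GPX1* and *CAT*, the last being the catalase assay and not the arginine transporter CAT2. They were taken by name from the antioxidant genes, a subgroup of the redox genes, of an RT-qPCR panel of 98 genes, and all 5 were measured in every group. Lungs came from female C57BL/6J mice aged 6 to 8 weeks. HBSS + vehicle mice had no cancer and inhaled only the salt solution HBSS. S100A8 + vehicle mice had no cancer and inhaled 10 µg of recombinant mouse S100A8, a calcium-binding protein of neutrophils and other myeloid cells, on Days 3, 6 and 9. HBSS + LLC and S100A8 + LLC mice carried Lewis lung carcinoma (LLC), a mouse lung cancer cell line, and inhaled HBSS or 10 µg of S100A8 on the same days. All mice, with or without LLC, had an injection into the lung in which cells or buffer were mixed with Matrigel, and lungs were taken on Day 10. LLC lungs held whatever cancer had grown in them, so that cancer and lung RNA are mixed in these 2 groups.

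Superoxide, a by-product of respiration and of the NOX2 oxidase of phagocytes, is turned into hydrogen peroxide by superoxide dismutases. SOD1 is the copper and zinc enzyme of the cytosol. Peroxide is then reduced along 3 routes: by peroxiredoxins such as PRDX1, which thioredoxin (TXN) reduces again, by the selenium enzyme GPX1, which uses glutathione, and by catalase in peroxisomes, which splits peroxide without a thiol donor. These proteins are made in nearly every cell type, the lung included. Several antioxidant genes respond to the transcription factor NRF2 through the antioxidant response element.

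Messenger RNA was measured as the threshold cycle (Ct), the number of amplification cycles before a product is detected. Each cycle fewer corresponds to roughly 2 times as much template, and 38 cycles was the cut off. The deposited values are means over 4 to 5 mice, 1 value for each gene and group. No spread between mice, SD or test can therefore be given for any difference below, and precision is unknown. A fold change is 2 to the power of the difference in Ct after subtraction of the mean Ct of the 2 housekeeping assays, and a gene is called higher or lower past 2-fold. Amplification efficiency is not known, so Ct values of different genes are not ranked against each other. Whole lung was used, so more cells of a type and more RNA in each cell cannot be told apart.

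The housekeeping assays set a limit on every fold change. Listed from S100A8 + LLC through HBSS + LLC and S100A8 + vehicle to HBSS + vehicle, the first was at 15.82, 15.35, 16.17 and 14.09 cycles and the second at 22.75, 20.56, 23.3 and 22.5 cycles. They moved apart by 3.20 cycles between HBSS + vehicle and HBSS + LLC, which is a 9.19-fold difference between fold changes made with either alone. Between HBSS + LLC and S100A8 + LLC the same difference was 3.29-fold. The fold changes of the 5 genes below are therefore given with their range over 4 references, namely both assays, either alone, and the median Ct of the panel. Lung identity was checked on the panel's own markers: *RAGE* and *AGER*, 2 assays named for the alveolar epithelial receptor gene Ager, stayed between 16.06 and 18.07 cycles in all groups. *CAV1*, the third alveolar marker, ran from 14.95 to 18.56 cycles, and HBSS + LLC exceeded HBSS + vehicle by 2.77-fold. None of the 12 cell markers of the panel was at the cut off, with Ct values from 14.95 to 30.84, and 3 were higher and 2 lower in S100A8 + vehicle, 2 higher and 3 lower in HBSS + LLC, and 2 higher and 2 lower in S100A8 + LLC, all relative to HBSS + vehicle. Among them *CDH1* of epithelium was 32.7-fold, 16.8-fold and 12.3-fold higher in these 3 groups, whereas *KRT5*, also of epithelium, was 8.57-fold, 8.63-fold and 4.66-fold lower. *MUC1* stayed within 2-fold, and *KRT14* was 1.01-fold, 0.312-fold and 6.11-fold. *LCK* of T cells was 3.10-fold, 5.17-fold and 3.63-fold lower. The myeloid marker *S100A8* was 2.30-fold, 1.11-fold and 1.75-fold, *S100A9* 2.08-fold, 0.768-fold and 0.525-fold, and *NOX2* 1.59-fold, 1.62-fold and 0.841-fold. *MKI67* of proliferating cells was 0.763-fold, 0.727-fold and 0.865-fold. Of the 12, 1 (*KRT14*, 19.6-fold higher) passed 2-fold between S100A8 + LLC and HBSS + LLC. Between S100A8 + LLC and S100A8 + vehicle, *KRT14* was higher and 5 were lower, namely *AGER* (3.29-fold), *RAGE* (2.17-fold), *CDH1*, *MUC1* and *S100A9* (3.97-fold). The other myeloid markers, *S100A8* (1.31-fold lower) and *NOX2* (1.89-fold lower), stayed within 2-fold there. These cell markers move in the same comparisons as the antioxidant genes, and their part in the values was not tested.

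The promoters of *SOD1*, *TXN* and *PRDX1* are shown because these 3 genes had the largest differences of the 5. The sequences are the 250 bases before the RefSeq start site on GRCm38.p6, read along the gene's strand. Sod1 (chr16:90220512-90220761, plus strand), Txn1 (chr4:57956412-57956661, minus strand) and Prdx1 (chr4:116685349-116685598, plus strand) are the mouse gene symbols. Capitals mark the core of the antioxidant response element, TGACNNNGC on either strand, and the TATA motif TATAAA on either strand.
Sod1: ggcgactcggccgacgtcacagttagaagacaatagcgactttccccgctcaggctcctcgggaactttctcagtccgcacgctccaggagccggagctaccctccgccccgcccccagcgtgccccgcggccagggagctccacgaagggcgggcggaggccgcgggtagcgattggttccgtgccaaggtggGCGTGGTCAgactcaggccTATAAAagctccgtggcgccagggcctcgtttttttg
Txn1: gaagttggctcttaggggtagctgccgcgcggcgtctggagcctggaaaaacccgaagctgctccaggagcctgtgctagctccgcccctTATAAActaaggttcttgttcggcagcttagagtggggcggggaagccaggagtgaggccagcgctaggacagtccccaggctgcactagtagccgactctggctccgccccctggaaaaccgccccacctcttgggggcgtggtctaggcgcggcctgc
Prdx1: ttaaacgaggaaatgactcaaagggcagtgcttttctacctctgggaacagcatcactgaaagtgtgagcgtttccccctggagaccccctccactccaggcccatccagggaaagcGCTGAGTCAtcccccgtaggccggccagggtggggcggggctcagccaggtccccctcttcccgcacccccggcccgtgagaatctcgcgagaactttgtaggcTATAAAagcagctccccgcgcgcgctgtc
Prdx1 holds GCTGAGTCA, the element core read on the opposite strand, 133 bases before its start site, and Sod1 holds GCGTGGTCA 56 bases before its own. Txn1 has no such match in this window. The windows of Gpx1 (chr9:108338830-108339079, plus strand) and Cat (chr2:103485154-103485403, minus strand) match neither motif. Among 32851 RefSeq windows of the same length, 10.2% hold the element core, against 2 of the 5 here. The TATA motif occurs in 12.4% of all windows and in the 3 shown, 37 bases before the start site in Sod1, 29 in Prdx1 and 160 in Txn1. It was searched for after the sequences had been read, and a match of letters is not evidence that a factor binds there.

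*SOD1* mRNA was detected earliest in S100A8 + LLC, at a mean Ct of 19.79, then in HBSS + LLC at 21.81, in S100A8 + vehicle at 30.55 and last in HBSS + vehicle at 38. That last value is the cut off itself, so each fold change against this group is a lower bound. A transcript at the limit of detection in lung without cancer is unusual for a gene made in nearly every cell type, and values of single mice were not analysed here. All folds of *SOD1* and *TXN* against HBSS + vehicle carry this doubt. The transcript was at least 474-fold higher in S100A8 + vehicle, with a range of bounds over the references from 304 to 739. With LLC it was at least 59064-fold higher after HBSS and at least 602249-fold higher after S100A8, and over the references these bounds lay between 19484 and 179050 and between 360590 and 1005860. With a factor of 1.9 per cycle in place of 2, the bound in S100A8 + LLC was 224941-fold. Both groups with LLC were thus far above both groups without. After subtraction of the housekeeping mean, the 4 groups spanned at least 19.2 cycles, the widest range of the 98 panel genes, whose median range was 1.75 cycles.

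*TXN* mRNA, of the mouse gene Txn1, followed nearly the same order. Its mean Ct was 21.11 in S100A8 + LLC and 20.92 in HBSS + LLC, against 32.72 in S100A8 + vehicle and 37.41 in HBSS + vehicle. The last of these lies just under the cut off, where a mean over mice may include animals listed at 38 cycles. Relative to HBSS + vehicle, *TXN* was 70.0-fold higher in S100A8 + vehicle (44.9 to 109 over the references). Capping Ct values at 35 cycles reduced this to at least 13.2-fold, and the corresponding bound of *SOD1* to 59.3-fold. With LLC it was 72717-fold higher after HBSS (23988 to 220436) and 160254-fold after S100A8 (95950 to 267652), or 66016-fold in the latter with a factor of 1.9 per cycle. The normalised range was 17.3 cycles, second only to *SOD1* on the panel. From S100A8 + vehicle to S100A8 + LLC *TXN* gained 1.80 times more than *SOD1*. Neither was at the cut off there, but in S100A8 + vehicle both were above 30 cycles. Ratios between 2 genes in the same pair of groups do not depend on the reference.

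**Figure D1:**
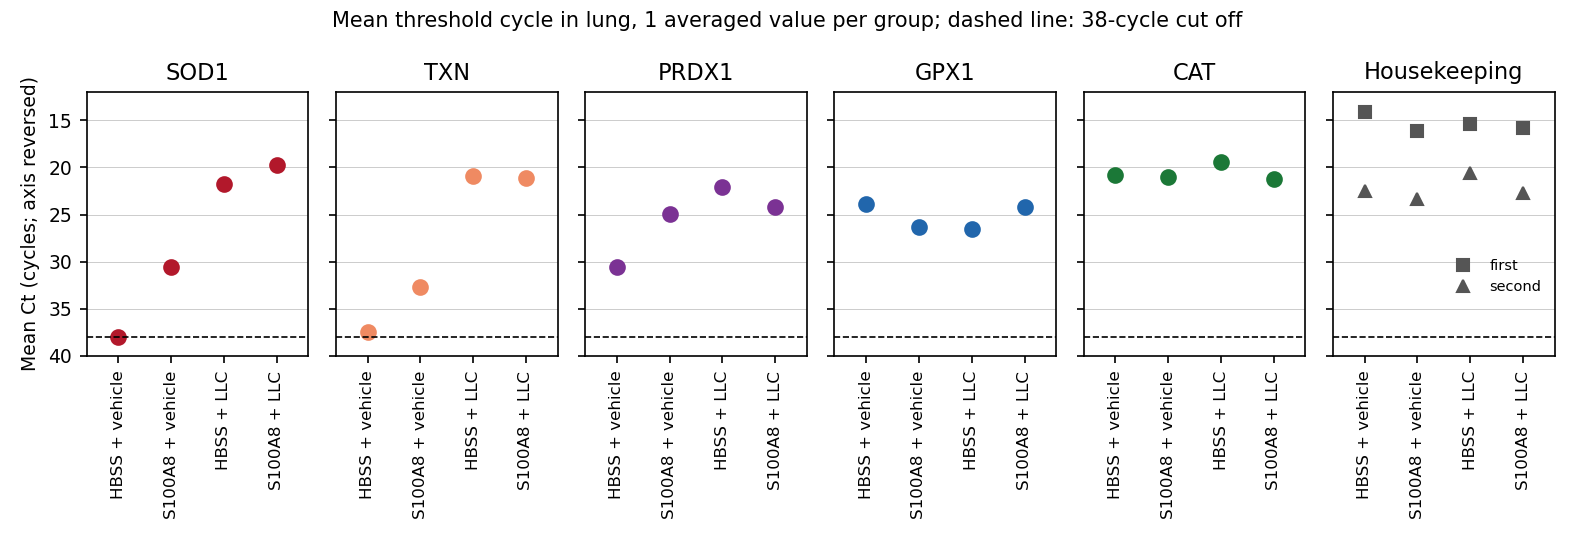
Mean threshold cycle (cycles, axis reversed so that more RNA is higher) of the 5 genes and the 2 housekeeping assays in the 4 groups, 1 point for each averaged value. *SOD1* and *TXN* start at or near the 38-cycle cut off (dashed line) in HBSS + vehicle and lie between 19.79 and 21.81 cycles in the LLC groups, whereas *CAT* stays between 19.43 and 21.26 cycles.

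*PRDX1* mRNA was at 24.2 cycles in S100A8 + LLC, 22.07 in HBSS + LLC, 24.95 in S100A8 + vehicle and 30.55 in HBSS + vehicle. HBSS + vehicle alone stood apart, by 7.04 normalised cycles from the next group, and the other 3 groups followed each other in steps of 0.3 and 0.8 cycles. The transcript was 132-fold higher in S100A8 + vehicle than in HBSS + vehicle (84.4 to 205 over the references). With LLC it was 282-fold higher after HBSS (93.1 to 855) and 162-fold after S100A8 (97.01 to 271). It stood apart from the transcript of its reductant, since *TXN* gained 1859 times more than *PRDX1* between S100A8 + vehicle and S100A8 + LLC.

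*GPX1* mRNA ran differently from the first 3. Its mean Ct was 24.19 in S100A8 + LLC, 26.51 in HBSS + LLC, 26.28 in S100A8 + vehicle and 23.87 in HBSS + vehicle, so that no value was near the cut off. The 2 groups given S100A8 or LLC alone were the lowest in transcript. The group given both and HBSS + vehicle were the highest, in an order that depended on the reference. Against HBSS + vehicle, *GPX1* was 7.89-fold lower in HBSS + LLC (2.60 to 23.9-fold lower over the references), rank 95 of 98 from the highest. In S100A8 + vehicle it was 1.96-fold lower, not past the threshold, with a range from 1.26 to 3.05-fold lower. In S100A8 + LLC it was 1.59-fold higher, a difference that ran from 0.953 to 2.66 over the references and so had no fixed direction.

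*CAT* mRNA varied least. Its mean Ct was 21.26 in S100A8 + LLC, 19.43 in HBSS + LLC, 21.06 in S100A8 + vehicle and 20.77 in HBSS + vehicle, and the normalised range of 1.15 cycles was below the panel median. Catalase transcript was 2.22-fold higher in S100A8 + vehicle than in HBSS + vehicle. With LLC it was 2-fold higher after HBSS, which is on the threshold and not past it, and 1.41-fold after S100A8. Over the references these values ran from 1.42 to 3.46, from 0.660 to 6.06 and from 0.847 to 2.36, so the direction was fixed in the first alone.

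**Figure D2:**
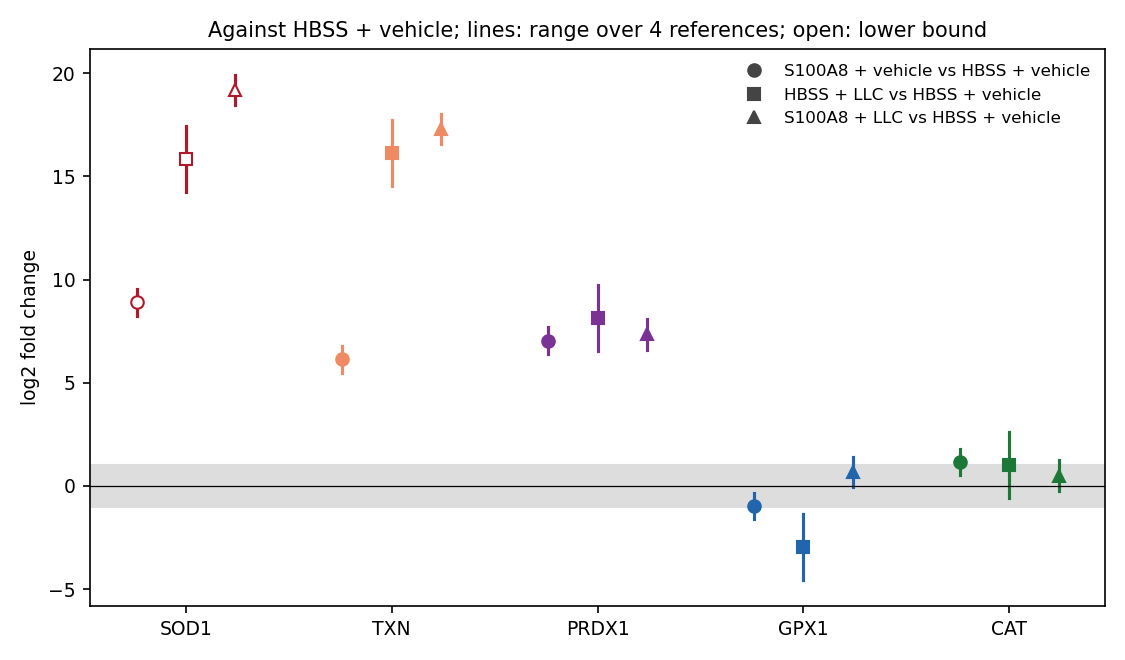
Log2 fold change of the 5 genes in each of 3 groups against HBSS + vehicle. Points use both housekeeping assays, vertical lines span the 4 references, open symbols are lower bounds and the grey band is within 2-fold. *SOD1*, *TXN* and *PRDX1* lie above the band with every reference, *GPX1* lies below it in HBSS + LLC, and *CAT* has log2 values from 0.50 to 1.15.

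Counted over the 5 genes, S100A8 + vehicle exceeded HBSS + vehicle by more than 2-fold in 4 and fell short by as much in 0, where 27.8% of 97 panel genes with a fold change were higher and 17.5% lower. In HBSS + LLC 3 were higher and 1 lower, beside 26.5% and 21.4% of 98 panel genes. In S100A8 + LLC 3 were higher and 0 lower, beside 22.4% and 18.4%. The reference moved some of these counts and not others, while the panel shares moved too. In HBSS + LLC the counts stayed at 3 higher and 1 lower with the second assay alone, beside 14.3% and 63.3% of the panel. In S100A8 + LLC they stayed at 3 and 0, beside 16.3% and 48%. With the second assay alone, 3 were higher and 1 (*GPX1*) lower in S100A8 + vehicle, beside 16.5% and 30.9% of the panel, and with the panel median the same numbers stood beside 19.6% and 25.8%. With the first assay alone, 4 were higher in HBSS + LLC, beside 62.2% of the panel, and 5 in S100A8 + LLC, beside 37.8%. For the 5 genes the median log2 fold change was 6.13, 8.14 and 7.34 in the 3 groups, and that of all panel genes 0.34, -0.18 and -0.22. The 3 comparisons share HBSS + vehicle. The high values of *SOD1*, *TXN* and *PRDX1* in each rest on the same 3 control values, all above 30 cycles. When both groups compared were required to have a mean Ct of at most 30, these 3 genes dropped out of all 3 comparisons. Of the 2 genes left, 1, 0 and 0 were higher, beside 23.6%, 17.3% and 10.7% of the panel genes compared. The numbers lower were 0, 1 and 0, beside 11.1%, 20% and 20%.

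The effect of S100A8 in lungs with cancer was read from S100A8 + LLC against HBSS + LLC, a comparison in which every one of the 5 genes had a mean Ct under 27 cycles and the late cycles of HBSS + vehicle play no part. *GPX1* was 12.6-fold higher with S100A8, rank 2 of 98 genes, from 26.51 to 24.19 cycles. *SOD1* was 10.2-fold higher, rank 3, from 21.81 to 19.79 cycles. Over the references *GPX1* ran from 6.92 to 22.8 and *SOD1* from 5.62 to 18.5, so both kept a difference past 2-fold. *TXN* was 2.20-fold higher (1.21 to 4), but its mean Ct hardly differed, at 20.92 and 21.11 cycles, and the fold change came from the higher housekeeping Ct in S100A8 + LLC. *PRDX1* was 1.74-fold lower and *CAT* 1.41-fold lower. Over the references *PRDX1* ran from 3.16-fold lower to 1.04-fold higher and *CAT* from 2.57-fold lower to 1.28-fold higher, so neither had a fixed direction. In all, 3 of the 5 genes were more than 2-fold higher and 0 lower, where 11.2% of panel genes were higher and 15.3% lower. With the first housekeeping assay alone 2 were higher and 2 lower, beside 5.1% and 44.9% of the panel, and with the panel median 2 were higher and 1 lower, beside 8.16% and 32.7%. Their median log2 fold change was 1.14 against -0.06 over the panel.

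Some of these differences hold whatever the reference, because they compare genes within the same 2 groups. Between HBSS + LLC and S100A8 + LLC, *GPX1* gained 21.9 times more than *PRDX1* and 17.8 times more than *CAT*. *SOD1* likewise gained 17.8 times more than *PRDX1* and 14.4 times more than *CAT*. *SOD1* and *GPX1* differed from each other by 1.23 times. The genes for superoxide dismutase and glutathione peroxidase thus stood together above those for peroxiredoxin 1 and catalase, with *TXN* between them.

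LLC cancer in S100A8-treated lungs was read from S100A8 + LLC against S100A8 + vehicle, where the 2 housekeeping assays moved together to within 0.20 cycles. *TXN* was 2288-fold higher with LLC and *SOD1* 1269-fold, ranks 1 and 2 of 98, from mean Ct values of 32.72 and 30.55 in S100A8 + vehicle. *GPX1* was 3.12-fold higher, rank 7. *PRDX1* was 1.23-fold higher (1.09 to 1.32 over the references) and *CAT* 1.57-fold lower (1.46 to 1.77), neither past the threshold. Over the references *GPX1* ran from 2.77 to 3.34, *SOD1* from 1128 to 1361 and *TXN* from 2034 to 2452, and with a factor of 1.9 per cycle *TXN* was 1291-fold and *SOD1* 748-fold higher. The count was 3 of 5 more than 2-fold higher and 0 lower, beside 12.2% and 29.6% of the panel. With mean Ct limited to 30 in both groups, *TXN* and *SOD1* dropped out. Of the 3 genes left, 1 (*GPX1*) was higher and 0 were lower, beside 2.67% and 37.3% of the panel. Against the same cancer in HBSS-treated lungs *GPX1* went the other way, 7.89-fold lower with LLC.

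**Figure D3:**
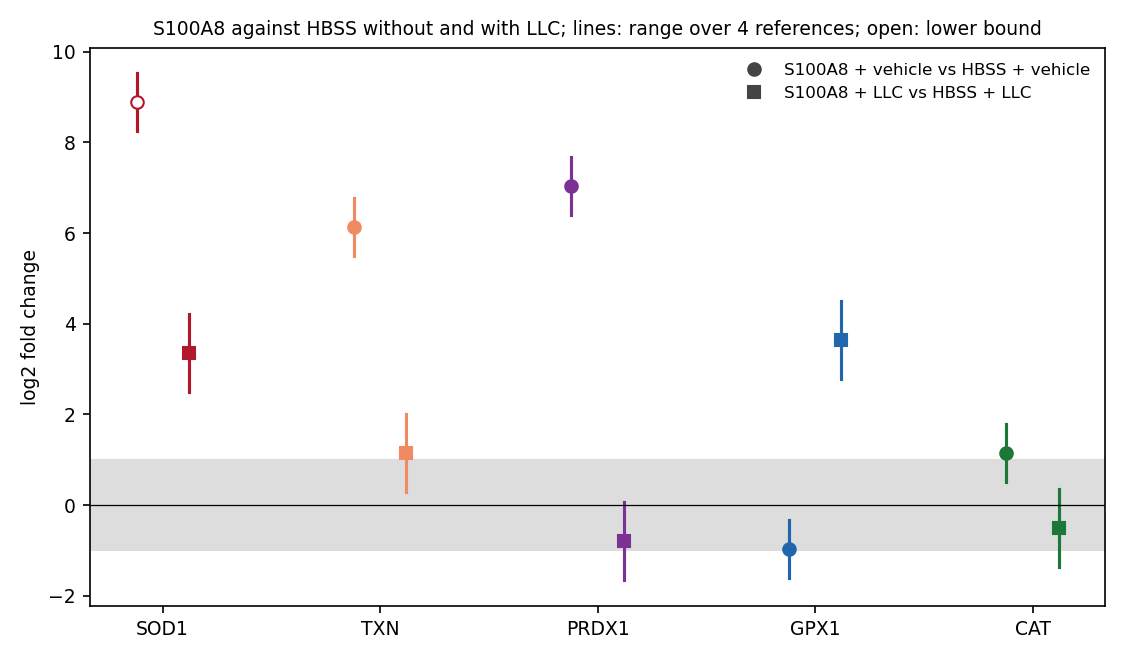
Log2 fold change with S100A8 relative to HBSS in lungs without LLC (circles) and with LLC (squares) for the 5 genes. Points use both housekeeping assays, lines span the 4 references and the open circle is a lower bound. *GPX1* is at -0.97 without LLC and 3.65 with LLC, and *PRDX1* at 7.04 and -0.80.

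Subtracting the S100A8 effect without LLC from that with LLC gives the difference between the 2 settings on the log2 scale. It was 4.62 for *GPX1*, rank 3 from the highest among 97 genes, and 3.12 to 6.12 over the references. It was -7.84 for *PRDX1* (-9.34 to -6.34), -5.54 or lower for *SOD1* (-7.04 to -4.04), -4.99 for *TXN* (-6.49 to -3.49) and -1.65 for *CAT* (-3.15 to -0.15). With Ct values capped at 35 cycles it was -2.54 or lower for *SOD1* and -2.58 or lower for *TXN*. *SOD1* and *TXN* were higher with S100A8 in both settings, by more without LLC, where they started at or near the cut off. *PRDX1*, *GPX1* and *CAT* had opposite signs in the 2 settings, 3 of 5 beside 59.8% of the 97 panel genes. With both housekeeping assays the lower value was not past 2-fold in any of the 3. Over the references it reached 3.16-fold lower for *PRDX1*, 3.05-fold for *GPX1* and 2.57-fold for *CAT*. *GPX1* was the only one of the 3 to keep opposite directions with all 4 references.

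**Figure D4:**
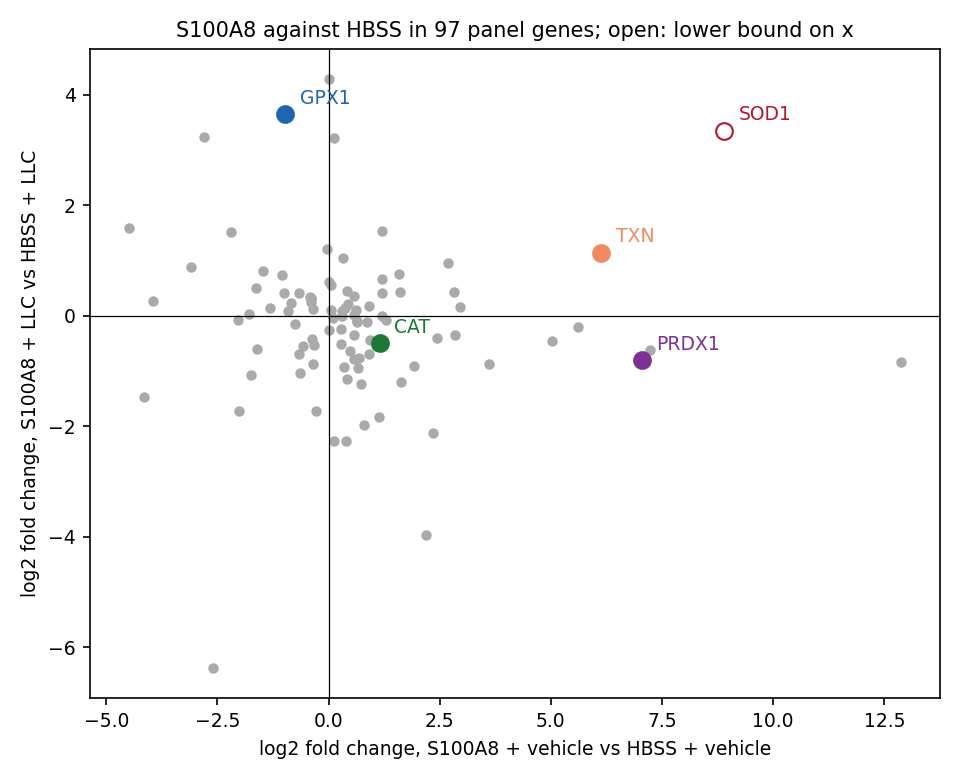
Log2 fold change with S100A8 in lungs without LLC (x) against lungs with LLC (y) for 97 panel genes, the 5 genes described here in colour, with the open circle a lower bound on x. *GPX1* lies at the upper left with a value of 3.65 on y, *SOD1* at the upper right, and *PRDX1* at 7.04 on x, just below 0 on y.

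The panel genes most like each of the 5 were found by profile. Likeness was measured as the root mean square difference, in log2 units, of the 3 fold changes against HBSS + vehicle, a quantity the reference does not move, over 3 groups that share that control. No distance is given for *SOD1*, whose 3 fold changes are lower bounds. *TXN* had no close neighbour among genes not at the cut off in HBSS + vehicle. The nearest was *ICAM-1*, an adhesion molecule of endothelium, at 5.27, itself at 32.47 cycles in HBSS + vehicle. Its log2 fold changes were 12.88, 12.9 and 12.07, against 6.13, 16.15 and 17.29 for *TXN*. *PRDX1* was nearest to *IL-10*, an anti-inflammatory cytokine, at 0.79, followed by *ARG1*, the arginase of myeloid cells and liver, at 2.49. *GPX1* was nearest to *S100A4* at 0.76, whose fold changes were 0.13, -2.30 and 0.92 on the log2 scale, then to *IL-23* at 1.19. *CAT* was nearest to *HO-1*, the heme-degrading oxygenase, at 0.19 and to *CADM1* at 0.31. With 3 values a gene, such likeness is a description of these averages.

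The other 9 redox genes of the panel were compared in the same way. Against HBSS + vehicle, 4 were more than 2-fold higher and 0 lower in S100A8 + vehicle, 4 higher and 2 lower in HBSS + LLC, and 4 higher and 1 lower in S100A8 + LLC, with median log2 fold changes of 0.67, 0.79 and 0.72. *NOX2*, the phagocyte oxidase that makes superoxide, was 1.59-fold, 1.62-fold and 0.841-fold in these groups. *MT2* of the metal-binding metallothioneins was 6.41-fold, 3.03-fold and 5.90-fold, whereas *MT1* was 0.790-fold, 0.316-fold and 0.344-fold. The glutathione transferase assay *GSTM* was 7.16-fold, 3.48-fold and 2.75-fold, and *HO-1* 2.43-fold, 1.73-fold and 1.65-fold. *ARG1* had the largest values of the 9, at 48.5-fold, 31.6-fold and 27.3-fold. Between S100A8 + LLC and HBSS + LLC, 0 of the 9 were more than 2-fold higher and 1 was lower, *CAT2*, the arginine transporter, at 4.79-fold. The numbers higher against HBSS + vehicle depended on the reference. They reached 8 of 9 in S100A8 + vehicle with the first housekeeping assay alone, beside 49.5% of the panel. In HBSS + LLC with the second alone they fell to 2 of 9, beside 14.3%. Between S100A8 + LLC and HBSS + LLC, 4 of the 9 were lower with the first assay alone and 2 with the panel median, beside 44.9% and 32.7% of the panel. With the second alone 3 were higher, beside 39.8%.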

How the data were processed

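Lung RNA of 4 groups was measured by SYBR Green RT-qPCR on 98 genes and 2 housekeeping genes. Per the labels, DNase-treated RNA (1.5 µg) was reverse-transcribed. The authors averaged Ct values over 4 to 5 mice and deposited 1 mean Ct per group and assay (a cycle score, not normalised). A second table deposited by the authors holds their fold changes (a ratio to the control group), which were used here only as a key. Assays are numbered, and each was given its gene by matching these ratios to the 3 printed for each gene (tolerance 0.5%, largest difference 0.000269%). The 2 unmatched assays were taken as the housekeeping genes, β-actin and β2M, in unknown order. Columns were tied to groups by the same match. Gene symbols and promoters are from RefSeq (GRCm38.p6), and all 5 genes matched.

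Fold changes were computed in Python 3.11.15 (numpy 2.4.6, scipy 1.17.1, matplotlib 3.10.9) against the mean of both housekeeping assays, assuming a factor of 2 per cycle. The code was tested on simulated Ct values. With 1 averaged value per group no replicate spread, test or interval is possible. Depth is limited at late cycles: in HBSS + vehicle 3 of the 5 had a mean Ct above 30. Alternatives were other references, a cap of 35 cycles, a factor of 1.9 per cycle, thresholds of 1.5-fold and 3-fold, and limits of 30 or 35 on mean Ct. The genes named beyond the 5 are the other redox genes, the cell markers and the nearest panel genes by profile. The members and lists were chosen with earlier results of these data known.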

Additional observations from a re-analysis of the deposited data

Results flagged for a closer look

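For 3 of the 5 genes S100A8 went with more transcript in one setting, lungs with or without LLC, and with less in the other. The effect with LLC minus the effect without was 4.62 on the log2 scale for *GPX1* (-0.97 without, 3.65 with), -7.84 for *PRDX1* (7.04 and -0.80) and -1.65 for *CAT* (1.15 and -0.50). The difference was not tested, since each group has 1 averaged value. When the second housekeeping assay was the sole reference, *PRDX1* (6.4 without LLC and 0.06 with) and *CAT* (0.51 and 0.36) were higher with S100A8 in both settings, while *GPX1* kept opposite signs with each of the 4 references. With both housekeeping assays as reference, the lower of the 2 values was not past 2-fold in any of the 3 genes. It was past 2-fold for *GPX1* with the second assay (-1.61) and the panel median (-1.405). For *PRDX1* it was so with the first assay (-1.66) and the panel median (-1.285), and for *CAT* with the first assay (-1.36). Opposite signs were as common in the panel, with 58 of 97 genes or 59.8%, and the count of 3 in 5 is near that share.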

How the results depend on the processing

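Of 25 fold changes (5 genes in 5 comparisons), all stayed on their side of 2-fold with Ct values capped at 35 or a factor of 1.9 per cycle. The reference moved the small ones. With the first housekeeping assay alone, *CAT* was 6.06-fold in HBSS + LLC, and in S100A8 + LLC *CAT* was 2.36-fold and *GPX1* 2.66-fold, all against HBSS + vehicle, so that 5 of the 5 genes were higher in S100A8 + LLC, beside 37.8% of the panel. Against HBSS + LLC, S100A8 + LLC was then 1.21-fold for *TXN*, 0.316-fold for *PRDX1* and 0.390-fold for *CAT*, with 2 genes lower, beside 44.9% of the panel. With the second assay alone, *GPX1* was 0.328-fold and *CAT* 1.42-fold in S100A8 + vehicle (1 gene lower), *CAT* 0.660-fold in HBSS + LLC, and *GPX1* 0.953-fold and *CAT* 0.847-fold in S100A8 + LLC, and against HBSS + LLC *PRDX1* was 1.04-fold and *CAT* 1.28-fold. The *CAT* difference in S100A8 effect with and without LLC was then -0.15 (log2). With the panel median, *GPX1* was 0.378-fold and *CAT* 1.64-fold in S100A8 + vehicle (1 gene lower), *CAT* 0.930-fold in S100A8 + LLC, and against HBSS + LLC *TXN* was 1.57-fold and *PRDX1* 0.410-fold (1 gene lower). A 1.5-fold threshold gave 1 gene lower in S100A8 + vehicle, beside 24.7% of the panel. It also gave 1 lower in S100A8 + LLC against each of HBSS + LLC and S100A8 + vehicle, beside 29.6% and 45.9%. Limiting mean Ct to 30 left 1, 0 and 0 of 2 genes higher against HBSS + vehicle, beside 23.6%, 17.3% and 10.7% of the panel. Against S100A8 + vehicle it left 1 of 3, beside 2.67%. A limit of 35 left 2, 1 and 1 of 3 genes higher against HBSS + vehicle, beside 26.7%, 21.3% and 15.6%. The counts fell by construction, since fewer genes were compared. Capping at 35 cycles lowered *SOD1* to at least 75281-fold and *TXN* to at least 30153-fold in S100A8 + LLC. No paired analysis was possible because each group has 1 averaged value. The cause of the other shifts was not tested.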
